A study of Mus musculus with 16 samples.

Results

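The wounds of untreated diabetic db/db mice were compared with those of wild type (WT) mice on the arrays that the labels place at day 14 after wounding. Arrays were taken by the group and day in their labels, which gave 2 db/db and 2 WT arrays, 4 of the 16 arrays of the series. The other arrays hold the same groups at labelled day 7, and db/db wounds given topical estrogen or vehicle at both labelled days. The db/db mice were C57BLKS/J females of 10 weeks that are homozygous for the db mutation of the leptin receptor gene, Lepr, and the WT mice were C57BL/6J females of 10 to 12 weeks. Both groups had full-thickness wounds on the back and received no treatment. The submitters describe the 2 arrays of each group as biological replicates. Since the groups differ in strain as well as in the Lepr allele and in diabetes, these cannot be told apart.

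The RNA came from a homogenate of the whole wound with the intact skin around it, so each array mixes epidermis, hair follicles, fat, muscle, vessels and immune cells. In such bulk samples, fewer cells of a type and less RNA per cell cannot be told apart. A skin wound is first entered by neutrophils and then by monocytes that become macrophages, while keratinocytes migrate over a bed of fibroblasts, new matrix and new vessels. The db mutation disrupts leptin signalling, which leads to obesity, high blood glucose and slow wound closure. Granulation tissue that keeps neutrophils and inflammatory macrophages for long, and an epidermis that closes late, are the usual features of wounds in this strain.

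Expression was read with 1-colour arrays of short DNA probes, and a level below is the log2 signal of a probe minus the log2 of the 75th percentile of its array. A level of 0 is therefore the 75th percentile, and a difference is the db/db mean minus the WT mean, with the standard error (SE) of a limma fit over all 16 arrays. A probe was tested where both WT arrays, both db/db arrays or all 4 put it well above background. A probe was called where the Benjamini-Hochberg adjusted p was below 0.05 and the fold change above 2. With 2 arrays a group, an exact permutation test of 1 gene cannot go below a two-sided p of 0.333, so every p here rests on the spread shared over the fit.

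The 75th percentile signal was 2352 and 2548 on the db/db arrays, 2383 on WT replicate 1 and 1091 on WT replicate 2. The share of probes well above background was 74.0% and 70.1% on the db/db arrays, and higher, 79.0% and 77.8%, on the WT arrays. Both db/db arrays lay on 1 slide and both WT arrays on another, with treated db/db arrays on both slides. The arrays of the 2 labelled days were scanned on different days, and the 2 kinds of day cannot be told apart. The day labels themselves are in doubt. Of 40 published folds set against folds computed from the deposited values, 0 matched within 1% on the same labelled day and 40 on the other labelled day, and "day 14" below is the labelled day.

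Markers of the cells of a skin wound were present in both groups. Krt5, a keratin of basal keratinocytes, was at 7.28 and 7.47 on the WT arrays and 6.03 and 7.01 on the db/db arrays. Col1a1 (fibroblast collagen) differed by −0.66 (adjusted p = 0.13), Pecam1 (endothelium) by 0.46 (adjusted p = 0.18) and Acta1 (skeletal muscle) by −0.12 (adjusted p = 0.93). Ptprc, carried by all leukocytes, had a difference of 0.78 (adjusted p = 0.024) and the macrophage marker Adgre1 one of 0.91 (adjusted p = 0.048), both under 2-fold, and a second Adgre1 probe was called higher (1.33, adjusted p = 0.0073). Xist, expressed from an X chromosome in females, was at −0.91 and −0.52 on the WT arrays and −2.47 and −2.25 on the db/db arrays, while the Y-linked Ddx3y, Eif2s3y, Kdm5d and Uty were not above background on any of the 4 arrays. Of 3 tested Lepr probes, 2 were lower on the db/db arrays, with differences of −2.72 ± 0.53 (SE, adjusted p = 0.0074) and −1.84 ± 0.24 (SE, adjusted p = 0.0011), and the other differed by −0.54 ± 0.41 (SE, adjusted p = 0.37). A probe outside the part of a transcript that a mutation alters does not check the genotype, and the parts that these probes read are not given in the sources used here.

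Of 30278 probes tested, 4257 were called, which is 14.1%. Higher levels in db/db wounds were called for 512 probes (1.69%) and lower levels for 3745 (12.4%). The groups did not overlap for any of the 4257 called probes, but this was also so for 65.8% of all probes tested. By an unadjusted p below 0.05 with the same fold, 18.1% were called, 2.38% higher and 15.7% lower. With 1 probe per gene, the brightest, 330 of 17108 genes were called higher (1.93%) and 1243 lower (7.27%), and the median difference over these genes was −0.04. These gene-level shares are the background for the gene groups below, but they take no account of level. Lower calls were most frequent among dim probes. They made up 30.1% of the 3708 probes whose mean level over the 16 arrays was below −6, and 3.66% of the 4697 probes with a mean level of 2 or more. Higher calls made up 1.13% and 1.75% of the same probes. At mean levels of −6 to −4 and of −4 to −2, lower calls made up 20.5% and 13.9% of the probes. These shares by level include probes without a gene symbol, of which 25.6% were called lower, against 7.72% of named probes. The mean level also takes in db/db arrays, so a probe that is lower in db/db wounds is placed at a lower level. The shares by level are thus no like-for-like background for lists of named genes. Well above background on both WT arrays and neither db/db array were 1573 probes, and 74 were so on both db/db arrays and neither WT array.

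**Figure D1:**
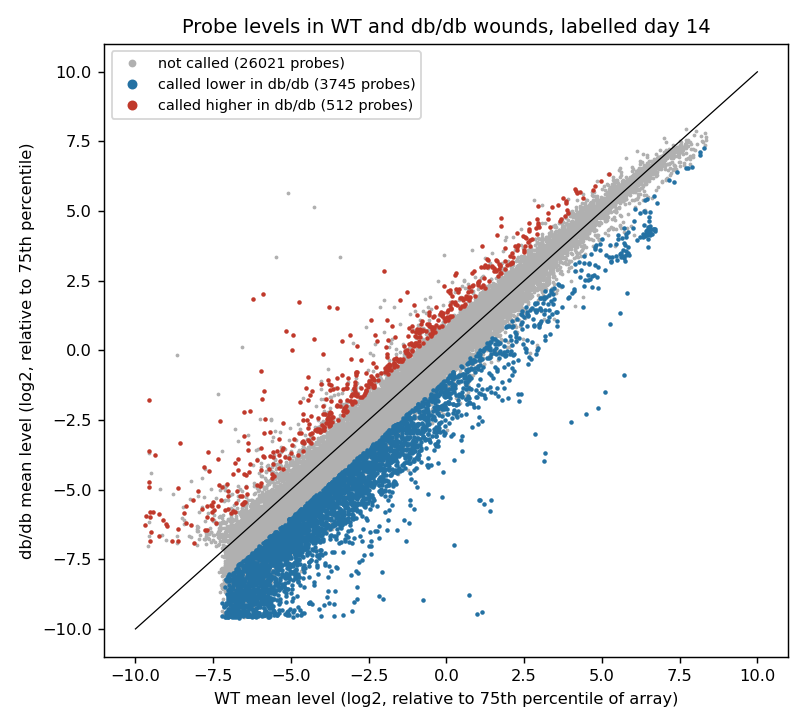
Mean level of each tested probe on the 2 WT arrays (horizontal axis) and on the 2 db/db arrays (vertical axis), both as log2 signal relative to the array's 75th percentile, with the line of equal levels. The 512 probes called higher are red, the 3745 called lower are blue and the other 26021 are grey, and the blue points are densest at low db/db levels.

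Many of these calls were lost when slide entered the fit. With slide as a block, which uses the treated db/db arrays that lay on both slides, 168 probes were called higher and 2004 lower, and 1793 of the original calls (42.1%) stayed. Leaving out 1 array at a time gave 2180 calls without db/db replicate 1, 1993 without db/db replicate 2, 5496 without WT replicate 1 and 1580 without WT replicate 2. Probes differed by more than 2-fold between the WT replicates in 11.7% of cases, and between the db/db replicates in 3.58%. Where counts are given below with each array left out, they follow this order of arrays. The genes described below as kept in every fit passed the test under all alternatives run, those with slide as a block and with an array left out included.

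Among the 31 gene lists, the major urinary proteins had the largest median difference, and every gene tested was called. Mup genes code for small secreted lipocalins that bind pheromones and lipids, and they are best known from liver and from secretory glands. All 11 Mup genes tested were called lower in db/db wounds, with a median difference of −6.62 and a range of −7.09 to −2.71. Mup20, which codes for the male pheromone darcin, was at 2.94 and 3.32 on the WT arrays and −3.21 and −4.71 on the db/db arrays, a difference of −7.09 ± 0.72 (SE, adjusted p = 3.4e-04). Mup19 was at 5.56 and 5.88 in WT wounds and −0.12 and −1.66 in db/db wounds, a difference of −6.62 ± 0.68 (SE, adjusted p = 3.4e-04). Both WT arrays were far above both db/db arrays for each of these genes, and the groups did not overlap. Mup21 had the smallest difference, −2.71 ± 0.35 (SE, adjusted p = 0.001).

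All 11 Mup calls stayed with slide as a block and with any 1 array left out. The Mup genes are near-identical copies in 1 cluster on chromosome 4, so a probe may read several of them, and the 11 values are not independent. At labelled day 7, on other arrays, their median difference was −8.09. Alb, which codes for the albumin of liver, was at −5.49 and −5.01 on the WT arrays and −6.90 and −5.85 on the db/db arrays, a difference of −1.13 ± 1.53 (SE, adjusted p = 0.63).

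RefSeq promoters, in build GRCm38.p6, were available for 9 of the 11 Mup genes. The TATA-like motif TATATAA was searched in the 300 bases from 250 before to 50 after each gene start, and all 9 held it once on the gene's strand. Over the promoters of all 32851 RefSeq starts, 2.2% held it on the gene's strand and 3.24% on either strand. Since the Mup genes are near-identical copies, the 9 promoters are not independent. The 120 bases just before the start are shown for Mup19, whose difference is the median of the list, and for Mup21, the gene with the smallest difference, with the motif in capitals. They lie at chr4:61782225-61782344 and chr4:62150842-62150961, both on the minus strand. The motif began 31 bases before the start of Mup19 and 8 bases before that of Mup21, and a match of letters is no evidence that it is used.
Mup19: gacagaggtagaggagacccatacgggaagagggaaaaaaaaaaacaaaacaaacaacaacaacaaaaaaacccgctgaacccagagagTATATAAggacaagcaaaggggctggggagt
Mup21: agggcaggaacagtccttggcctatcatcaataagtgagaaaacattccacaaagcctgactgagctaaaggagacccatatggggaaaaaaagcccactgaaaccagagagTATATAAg

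Genes of the Skint family were the other block of large decreases. Skint genes code for membrane proteins of keratinocytes and thymic epithelium, and Skint1 is needed for the dendritic epidermal T cells of mouse skin. Of 10 Skint genes tested, 6 were called lower and none higher, and the median difference was −3.02. Skint3 was at 2.37 and −0.08 in WT wounds and at −9.64 and −9.16 in db/db wounds, where it was not well above background on either array. The db/db level was at least 338-fold lower. Such a bound divides the brighter group's mean by the dimmer group's, after any level under the array's dimmest well-measured probe has been raised to that probe's level. It allows for dim signals and not for the spread between the arrays of the brighter group. Skint4 was at least 91-fold lower and Skint11 at least 15.4-fold lower by the same measure, and no db/db array reached a WT array for any of these genes.

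Skint8 (difference −4.81, adjusted p = 9.5e-04), Skint1 (−3.50, adjusted p = 0.006) and Skint6 (−2.53, adjusted p = 0.024) were lower too, each well above background on 1 of the db/db arrays. Skint7 was at 6.14 and 6.16 on the WT arrays and 6.30 and 6.23 on the db/db arrays, a difference of 0.11. Skint5, Skint9 and Skint10 were not called either, with differences of −0.89, −0.68 and −0.06. With slide as a block 5 of the 10 genes were called lower, and with 1 array left out 5 to 7. The family median at labelled day 7 was −3.49. Like the Mup genes, Skint genes are related copies, and a probe may read more than 1 of them.

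**Figure D2:**
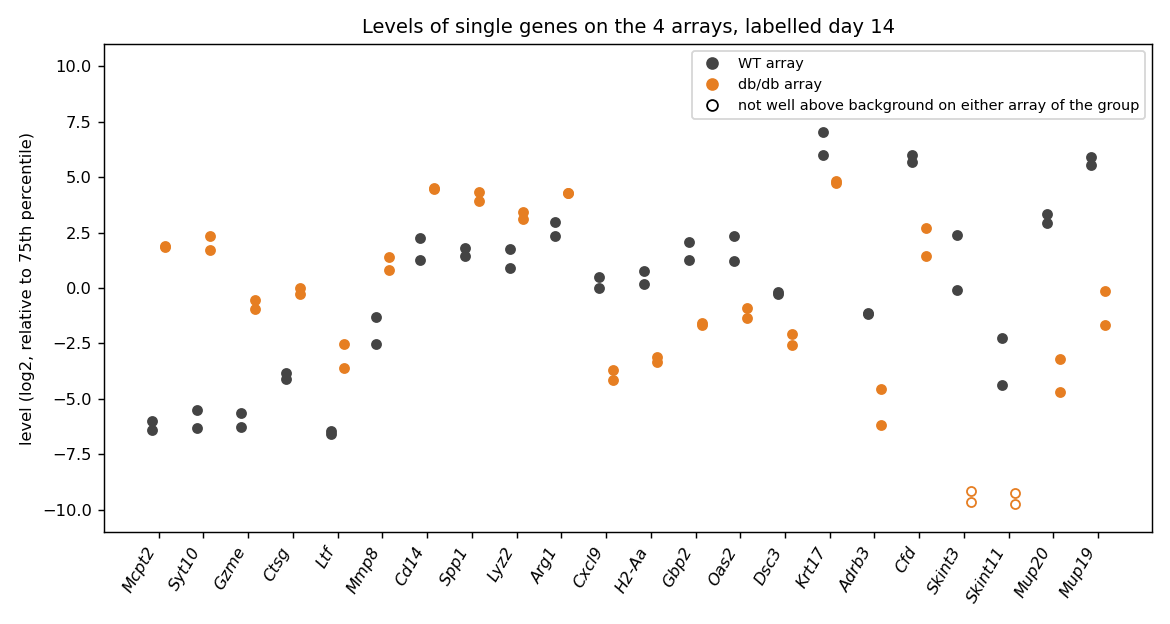
Level of 22 genes on each of the 4 arrays, in log2 units relative to the array's 75th percentile, with WT and db/db arrays in separate colours and open points where a probe was not well above background on either array of the group. Mcpt2, Syt10 and Gzme lie higher and Mup19, Mup20, Skint3 and Skint11 lower on both db/db arrays. The groups do not overlap for any of the 22 genes, nor for 65.8% of all tested probes.

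Among called genes above background on all 4 arrays, the highest differences were those of Mcpt2, Syt10 and the gene model 6330403K07Rik (6.47 ± 0.31 SE, adjusted p = 6.0e-06). Mcpt2, a mast cell chymase, was at −6.02 and −6.40 on the WT arrays and 1.84 and 1.88 on the db/db arrays, a difference of 8.07 ± 0.68 (SE, adjusted p = 1.3e-04). Syt10, a synaptotagmin that senses calcium in regulated secretion, was at −6.30 and −5.51 on the WT arrays and 1.72 and 2.32 on the db/db arrays, a difference of 7.93 ± 1.03 (SE, adjusted p = 0.0011). The db/db arrays were close to each other for both genes and far above the WT arrays, and both calls were kept in every fit. By the brightest probes, Mcpt2 was the 1 gene called of 14 mast cell genes. A second probe of the mast cell marker Tpsb2 was called higher (2.24, adjusted p = 0.048), while its brightest probe differed by 0.09. Cpa3, Mcpt4 and Cma1, which mark mast cells of the skin, had differences of 1.33 (adjusted p = 0.26), 1.36 (adjusted p = 0.15) and 1.42 (adjusted p = 0.093). The median of the mast cell list was 0.73, and it ranged from 0.11 to 1.75 with 1 array left out.

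Granzymes, the serine proteases of cytotoxic granules, moved both ways. Gzme was at −5.65 and −6.28 in WT and −0.96 and −0.54 in db/db wounds, a difference of 5.22 ± 0.52 (SE, adjusted p = 3.2e-04), and it was kept in every fit. Gzmn was not well above background on either WT array and was at least 12.2-fold higher on the db/db arrays, and Gzmd was at least 5.57-fold higher, the latter not called with normexp background correction. Gzmb, the main granzyme of cytotoxic T cells, was lower, with a difference of −2.09 ± 0.55 (SE, adjusted p = 0.025), a call that was lost with slide as a block, with quantile normalization and without any 1 of the 4 arrays. Gzmc differed by −0.92 and was not called. Gzmd, Gzmc and the related Gzmf and Gzmg were looked up after the value of Gzme was seen, and Gzmf and Gzmg were too dim to be tested.

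Several of the largest differences came from 1 of several probes of a gene. Xaf1, an interferon-induced gene that promotes cell death, had 1 probe higher by 5.87 ± 0.30 (SE, adjusted p = 6.8e-06) and another lower, at −1.92 ± 0.34 (SE, adjusted p = 0.0057). In db/db wounds a Thumpd1 probe was at least 305-fold lower, and the other Thumpd1 probe differed by 0.07. For Med8, a Mediator subunit, 1 probe was at least 36.9-fold lower and the other differed by 0.06. Each of these genes gave opposite or unequal readings from the same RNA.

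Btbd9 had 1 probe higher by 3.55 and 2 others at −0.16 and 0.12. Tox4 had a probe higher by 3.38 and a second at 0.36, and Gprc5b likewise 3.30 and 0.93. H2-Q10, a class Ib histocompatibility gene, had 1 probe lower, at −4.36, and 1 at 0.73, and the lower call was lost without db/db replicate 1 or WT replicate 2. Among genes with several tested probes and at least 1 called, the probes were all called in 1 direction for 22 of 129 genes with a higher call and for 95 of 587 with a lower call. For Ccl27a, Cd8a, Dbp, F13a1, H2-Ob, Irgm1, Isg15, Lpl, Mpeg1, Msr1, Scd3, Trp63 and Trpm1, whose brightest probes were called, at least 1 other tested probe was not. The sequences of the probes were not used here.

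**Figure D3:**
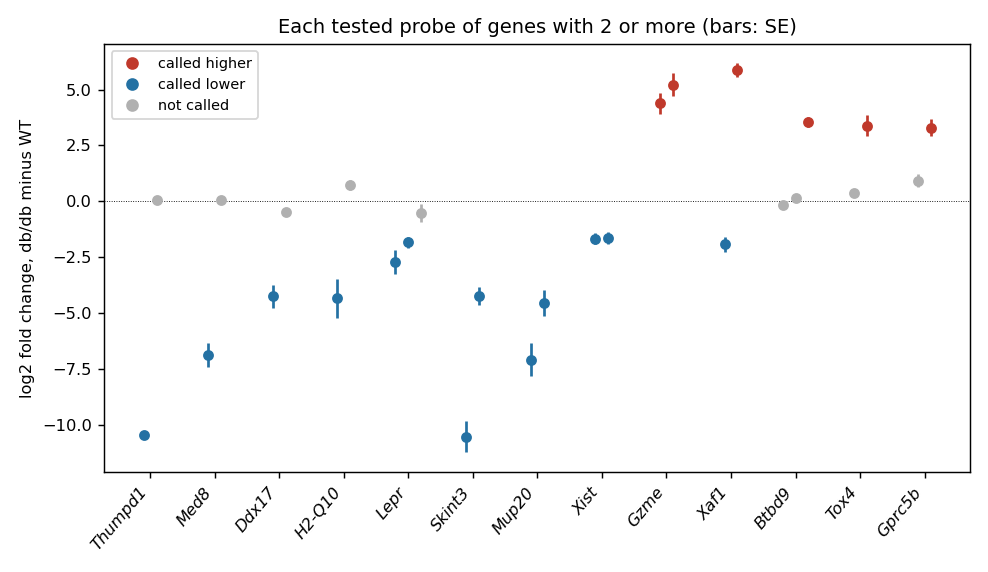
Difference between db/db and WT wounds for each tested probe of 13 genes, in log2 units, with bars for the SE of the limma fit over 16 arrays. The probes of Thumpd1, Med8, Btbd9, Tox4 and Xaf1 stand apart from each other, while those of Xist, Mup20 and Gzme lie on 1 side of 0.

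Several genes of neutrophil granules were higher in db/db wounds. Of 32 neutrophil genes tested, 7 were called higher and 2 lower, and the median difference was 1.24. Ctsg, the granule protease cathepsin G, was at −3.82 and −4.10 on the WT arrays and 0.01 and −0.26 on the db/db arrays, a difference of 3.83 ± 0.45 (SE, adjusted p = 6.5e-04) that was kept in every fit. Ltf, the iron-binding granule protein lactoferrin, was at −6.60 and −6.42 on the WT arrays and −3.61 and −2.52 on the db/db arrays, and differed by 3.45 ± 0.74 (SE, adjusted p = 0.011). Mmp8, neutrophil collagenase, differed by 3.01 ± 0.62 (SE, adjusted p = 0.0089). The db/db arrays were above the WT arrays for all of these genes.

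The receptors Mrgpra2a and Mrgpra2b, found on neutrophils, differed by 3.68 (adjusted p = 0.018) and 3.67 (adjusted p = 0.02), but they are close copies that a probe may not tell apart. The receptors Trem3 (1.72, adjusted p = 0.0044) and Clec4d (1.70, adjusted p = 0.024) completed the higher calls. The 2 lower calls were Csf3r, the receptor for G-CSF (−1.37, adjusted p = 0.034), and the protease inhibitor Stfa1 (−1.05, adjusted p = 0.02). S100a8 and S100a9, the most abundant cytosolic proteins of neutrophils, were not called, with differences of −0.65 and −0.45, and neither was Lcn2 (0.49). With slide as a block 1 neutrophil gene was called higher and 1 lower. With each array left out, 4, 2, 8 and 2 were called higher.

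The macrophage list had the most higher calls of any list. Of 23 genes tested, 8 were called higher and 1 lower, with a median difference of 0.91. Cd14, the co-receptor for bacterial lipopolysaccharide, was at 2.25 and 1.28 on the WT arrays and 4.45 and 4.49 on the db/db arrays, a difference of 2.71 ± 0.41 (SE, adjusted p = 0.0024). Spp1, the secreted protein osteopontin, differed by 2.50 ± 0.49 (SE, adjusted p = 0.0077), Gpnmb, a glycoprotein of lipid-laden and repairing macrophages, by 2.26 ± 0.68 (SE, adjusted p = 0.039) and lysozyme Lyz2 by 1.91 ± 0.38 (SE, adjusted p = 0.0076). Both db/db arrays were above both WT arrays for these genes. C1qa and C1qb, subunits of complement C1q, the pore protein gene Mpeg1 and the scavenger receptor Msr1 had differences of 1.5, 1.43, 1.41 and 1.08.

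Ccr2, the chemokine receptor of blood monocytes, was the macrophage-list gene called lower, with a difference of −1.65 ± 0.33 (SE, adjusted p = 0.0083). The brightest of 3 probes of the lineage receptor Csf1r differed by 0.35 and was not called, another differed by −0.45, and the third was called higher (1.03, adjusted p = 0.013). Of 17 genes of alternatively activated macrophages, 3 were called higher, namely Arg1 (arginase 1, 1.64, adjusted p = 0.036), the transglutaminase F13a1 (1.65, adjusted p = 0.021) and the lectin Clec10a (1.53, adjusted p = 0.018). The lectin Mgl2 was lower (−1.12, adjusted p = 0.0045), and Mrc1, Retnla and Chil3 were not called (0.53, −1.65 and 0.28). With slide as a block, 1 macrophage gene was called in each direction and 1 alternatively activated gene higher. With each array left out, 3, 5, 11 and 3 macrophage genes and 0, 0, 3 and 0 alternatively activated genes were called higher.

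Of 26 cytokine and mediator genes, 1 was called. Osm, oncostatin M, a cytokine of the IL-6 family made by neutrophils and macrophages, was higher by 2.35 ± 0.47 (SE, adjusted p = 0.0079). Il1b, Il6, Tnf and Ptgs2, the core mediators of acute inflammation, had differences of 1.39, 1.48, 1.02 and 1.82, none past the test. The 26 differences ranged over −3.26 to 2.35 with a median of 0.39, and 11 of them were below 0, the uncalled Il19 and Il17a at −3.26 and −2.18. The median was −0.12 with slide as a block and −0.25 without WT replicate 2. The Osm call was lost with slide as a block and without db/db replicate 1 or WT replicate 2, and without WT replicate 1 there were 3 higher calls in this list. Of 31 chemokine genes 2 were called higher, the neutrophil attractant Cxcl1 (1.95, adjusted p = 0.042) and the platelet chemokine Pf4 (1.42, adjusted p = 0.023), and 4 lower.

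The chemokines that were lower fell into those induced by interferon gamma and those of epithelium. Cxcl9, which attracts activated T cells, was at −0.02 and 0.48 on the WT arrays and −3.72 and −4.14 on the db/db arrays, a difference of −4.17 ± 0.87 (SE, adjusted p = 0.0096), and Cxcl10 differed by −2.34 ± 0.73 (SE, adjusted p = 0.046). Ccl27a, the keratinocyte chemokine for skin-homing T cells, differed by −2.10 ± 0.67 (SE, adjusted p = 0.049), and Ccl28, of mucosal and gland epithelium, was at least 4.98-fold lower. The WT arrays were above the db/db arrays in each case. Ccl28 kept its call in every fit in which it was tested, which leaves out the filter on probes above background on all 4 arrays, whereas the other 5 chemokine calls were lost with slide as a block and without db/db replicate 2. With each array left out, higher calls numbered 0, 0, 5 and 0 and lower calls 2, 1, 2 and 2.

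Several genes of antigen presentation were lower in db/db wounds. Of 20 genes of MHC class II and dendritic cells, 7 were called lower and 1 higher, with a median difference of −0.80. H2-Aa, the alpha chain of the class II molecule I-A, was at 0.17 and 0.76 in WT and −3.09 and −3.34 in db/db wounds, a difference of −3.68 ± 0.39 (SE, adjusted p = 4.1e-04), and it was kept in every fit. Its partner H2-Ab1 differed by −1.46 ± 0.41 (SE, adjusted p = 0.03), the invariant chain Cd74 by −1.37 ± 0.40 (SE, adjusted p = 0.037) and Ciita, the transcription factor that switches class II genes on, by −2.28 ± 0.59 (SE, adjusted p = 0.023). H2-DMb1, H2-Ob and H2-Eb1, which load or present peptide, differed by −2.15, −1.76 and −1.43.

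The gene called higher was H2-Ea-ps, at least 13.5-fold above the WT arrays, where it was not well above background. The H2-Ea locus is deleted in part in C57BL/6 mice, and strain and disease cannot be told apart here. Itgax, Cd86, Ccr7 and Zbtb46, markers of dendritic cells themselves, were not called (0.08, −0.11, −0.21 and −0.02). Lower calls numbered 2 with slide as a block, and 3, 1, 6 and 1 with each array left out.

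T cell genes had a median difference of −1.01, with 4 of 26 called lower and none higher. Their mean level lay between −3.37 and −2.13 on the 4 arrays. Of all tested probes with a mean level of −4 to −2, those without a gene symbol included, 13.9% were called lower. With 1 probe per gene and no regard to level, the share was 7.27%. The lower genes were Gzmb, Cd7 (−1.44, adjusted p = 0.017), the adaptor Trat1 and the co-receptor Cd8a. Neither db/db array put Trat1 or Cd8a well above background, and they were at least 2.49-fold and at least 1.71-fold lower. Cd3e, Cd3d and Cd3g, chains of the T cell receptor complex, differed by −0.45, −1.15 and −1.53, and Cd4 by 0.02, none past the test. With slide as a block 1 T cell gene was called lower, and all 4 calls were lost with quantile normalization. Lower calls numbered 1, 0, 4 and 0 with each array left out.

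Interferon-induced genes had the most lower calls of any list. Of 36 tested, 13 were called lower, 35 had a difference below 0, and the median was −1.07. Gbp2, a guanylate-binding protein that attacks intracellular microbes, was at 1.25 and 2.07 on the WT arrays and −1.58 and −1.68 on the db/db arrays, a difference of −3.29 ± 0.36 (SE, adjusted p = 4.8e-04). Oas2, which senses double-stranded RNA, was at 1.22 and 2.36 on the WT arrays and −0.92 and −1.34 on the db/db arrays, a difference of −2.92 ± 0.44 (SE, adjusted p = 0.0022). Neither gene had overlapping groups, and both were kept in every fit.

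The GTPases Gbp5 (−2.54, adjusted p = 0.0055), Iigp1 (−2.0, adjusted p = 0.0062), Igtp (−1.74, adjusted p = 0.016) and Irgm1 (−1.14, adjusted p = 0.041) were lower. So were the transcription factors Irf7 (−1.55, adjusted p = 0.04) and Stat2 (−1.48, adjusted p = 0.0051), and the ubiquitin-like Isg15 with its protease Usp18 (−1.20 and −1.17). Ifit1 and Rsad2 were not called (−1.36 and −0.14). The only positive value was that of the Xaf1 probe described above, whose other probe was lower. Lower calls numbered 2 with slide as a block and 8, 6, 13 and 4 with each array left out. The median at labelled day 7 was −1.39.

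**Figure D4:**
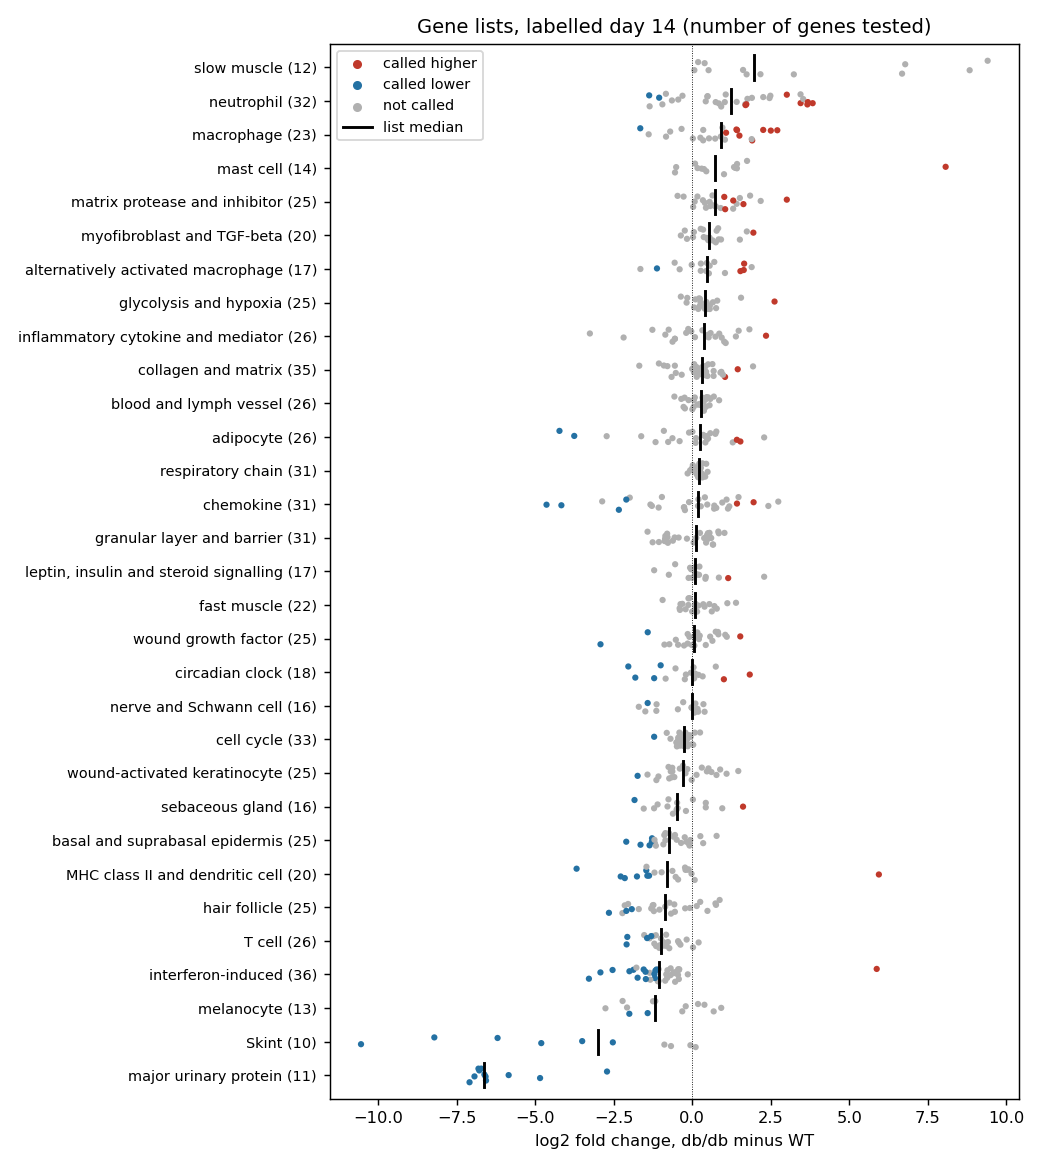
Difference between db/db and WT wounds, in log2 units, for every tested gene of the 31 gene lists, 1 probe per gene, with lists ordered by their median (black bar) and called genes coloured. Neutrophil and macrophage lists have medians of 1.24 and 0.91, and the interferon-induced, Skint and major urinary protein lists −1.07, −3.02 and −6.62.

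Several adhesion genes of the epidermis were lower in db/db wounds. Of 25 basal and suprabasal genes 5 were called lower, and the median was −0.74. Dsc3, a desmosomal cadherin, was at −0.29 and −0.16 on the WT arrays and −2.58 and −2.07 on the db/db arrays, a difference of −2.10 ± 0.30 (SE, adjusted p = 0.0018) that was kept in every fit. Its partner Dsg3 differed by −1.65 ± 0.39 (SE, adjusted p = 0.017). The hemidesmosome genes Col17a1 and Itgb4, which hold basal cells to the basement membrane, differed by −1.36 ± 0.31 (SE, adjusted p = 0.015) and −1.29 ± 0.26 (SE, adjusted p = 0.0082), and Trp63, the transcription factor of basal cells, by −1.28 ± 0.37 (SE, adjusted p = 0.035). WT arrays were above db/db arrays for all 5. The brightest probes of the keratins Krt5 and Krt14 were not called (−0.85, adjusted p = 0.067, and −0.92, adjusted p = 0.13), while a second Krt5 probe was lower (−1.79, adjusted p = 0.019).

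Among 25 genes of wound-activated keratinocytes, Krt17 was the 1 called, at 7.05 and 5.98 on the WT arrays and 4.73 and 4.82 on the db/db arrays (−1.74 ± 0.45 SE, adjusted p = 0.022), a call lost with slide as a block. Krt6a, Krt6b and Krt16 differed by −0.65, −0.75 and −1.14, and a second Krt6b probe was called lower (−2.13, adjusted p = 0.0494). Of 31 genes of the granular layer and barrier, 0 were called by limma, and 0 higher and 2 lower at an unadjusted p below 0.05 with a fold above 2. Their median was 0.13, and it ranged from −1.04 to 1.07 when 1 array was left out. Lower calls of basal and suprabasal genes numbered 2 with slide as a block and 1, 6, 4 and 2 with each array left out.

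Hair follicle genes had 3 lower calls of 25 and a median of −0.86. Their mean level lay between −4.62 and −3.63 on the 4 arrays. Of all tested probes, those without a gene symbol included, 20.5% were called lower at mean levels of −6 to −4. At −4 to −2 the share was 13.9%. With 1 probe per gene and no regard to level, it was 7.27%. Hoxc13 and Foxn1, transcription factors that switch on hair keratins, differed by −2.65 ± 0.36 (SE, adjusted p = 0.0013) and −1.92 ± 0.52 (SE, adjusted p = 0.026), and Krtap4-1, a keratin-associated protein of the hair shaft, by −2.10 ± 0.37 (SE, adjusted p = 0.0049). Hoxc13 was kept in every fit. Melanocyte genes had 2 lower calls of 13, the channel gene Trpm1 (−2.0, adjusted p = 0.039) and Sox10, a transcription factor of melanocytes and Schwann cells (−1.42, adjusted p = 0.024). The mean level of the melanocyte genes lay between −3.29 and −2.04 on the 4 arrays, where the share of lower calls was 13.9% as well. Of 16 nerve and Schwann cell genes, Sox10 was the 1 called, and the median was −0.02. The pigment enzymes Tyrp1 and Dct had differences of −2.76 (adjusted p = 0.058) and −2.22 (adjusted p = 0.11). Of 16 sebaceous genes, the desaturase Scd3 was lower (−1.84, adjusted p = 0.0087) and the lipid droplet gene Plin2 higher (1.62, adjusted p = 0.02). Foxn1 lost its call without db/db replicate 1, WT replicate 1 or WT replicate 2, and Krtap4-1, Trpm1, Sox10, Scd3 and Plin2 lost theirs with slide as a block. With each array left out, lower calls numbered 2, 4, 2 and 2 for hair follicle genes and 0, 0, 1 and 0 for melanocyte genes.

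Few fat genes were called, in both directions. Of 26 adipocyte genes, 2 were called higher and 2 lower, where 1.93% and 7.27% of all genes were. The lower count is near that share. The median was 0.24, and it was −0.23 without WT replicate 2 and 1.05 with slide as a block. Adrb3, the beta-3 adrenergic receptor that triggers lipolysis, was at −1.16 and −1.15 on the WT arrays and −4.57 and −6.19 on the db/db arrays, a difference of −4.23 ± 0.44 (SE, adjusted p = 3.9e-04) that was kept in every fit. Cfd, the adipokine adipsin, differed by −3.76 ± 0.91 (SE, adjusted p = 0.018). Lpl, which releases fatty acids from lipoproteins, and the fatty acid transporter Cd36 were higher by 1.53 ± 0.32 (SE, adjusted p = 0.0093) and 1.42 ± 0.23 (SE, adjusted p = 0.0033), both genes that macrophages express too.

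Adipoq, Plin1 and Fabp4, the defining genes of fat cells, were not called, with differences of −0.63, −0.10 and 0.77. Lep, the hormone leptin, was at −3.35 and −4.73 on the WT arrays and −1.27 and −2.22 on the db/db arrays, a difference of 2.29 ± 0.86 (SE, adjusted p = 0.085) that missed the threshold. Irs2, an adaptor of the insulin receptor, was the 1 gene called of 17 in leptin, insulin and steroid signalling, higher by 1.14 ± 0.24 (SE, adjusted p = 0.011). The estrogen receptor gene Esr1 differed by −0.74 (adjusted p = 0.16) and Insr by −0.12 (adjusted p = 0.68). Cfd lost its call with slide as a block and without db/db replicate 2, WT replicate 1 or WT replicate 2, Irs2 with slide as a block and without db/db replicate 1 or WT replicate 2, and Lpl without db/db replicate 1 or WT replicate 2.

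Genes of slow muscle fibres had the highest median of any list, 1.95, without a call. All 12 genes had a difference above 0 and 0 passed the test in limma, while 5 did at an unadjusted p below 0.05 with a fold above 2. Myh7, the slow myosin heavy chain, was at −4.73 and −3.76 on the WT arrays and 5.65 and 4.67 on the db/db arrays, a difference of 9.40 ± 3.13 (SE, adjusted p = 0.057). Myl2 and Myl3, its light chains, differed by 8.83 ± 2.98 (SE, adjusted p = 0.059) and 6.78 ± 2.59 (SE, adjusted p = 0.088). The groups did not overlap for Myh7, which passed with the 4 arrays alone in the fit (adjusted p = 0.024), and its difference was 14.7 with slide as a block (adjusted p = 0.063). Fast fibre genes had a median of 0.10 with 0 calls of 22, also at the unadjusted threshold, and Myh4 and Ckm differed by 0.35 and 0.70. That median was 2.05 with slide as a block and −0.47 to 0.65 with 1 array left out, and the slow fibre median was 3.45 and 1.08 to 3.10. The part of muscle RNA in the other results was not tested.

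Proteases that degrade matrix were higher in part. Of 25 genes 5 were called higher and none lower, with a median of 0.73. Beside Mmp8 these were the gelatinase Mmp2 (1.63 ± 0.38 SE, adjusted p = 0.015), Mmp19 (1.30 ± 0.37 SE, adjusted p = 0.031), the urokinase receptor Plaur (1.05 ± 0.31 SE, adjusted p = 0.038) and the sheddase Adam8 (1.02 ± 0.28 SE, adjusted p = 0.029). Mmp9, Mmp10 and Mmp13 had differences of 1.41, 2.18 and 1.84 and did not pass, and the inhibitors Timp1, Timp2 and Timp3 differed by 0.44, 0.08 and −0.28. All 5 calls were lost with slide as a block. Higher calls numbered 1, 0, 6 and 0 with each array left out.

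Of 35 collagen and matrix genes, 2 were called higher, the basement membrane collagen Col4a1 (1.04, adjusted p = 0.021) and the matricellular Thbs1 (1.45, adjusted p = 0.0498). The fibrillar collagens Col1a1, Col1a2 and Col3a1 differed by −0.66, −0.52 and −0.55 and were not called. Ccn1, a matricellular protein, was the 1 of 20 myofibroblast and TGF-beta genes called, higher by 1.95 ± 0.32 (SE, adjusted p = 0.0035), and the myofibroblast marker Acta2 differed by 0.05. Col4a1, Thbs1 and Ccn1 lost their calls with slide as a block. With each array left out, 0, 0, 5 and 0 matrix genes and 1, 1, 4 and 1 myofibroblast and TGF-beta genes were called higher, and without WT replicate 1 another 3 matrix genes were called lower.

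Among 25 growth factors, Epgn and Areg, ligands of the epidermal growth factor receptor, were lower, with differences of −2.92 ± 0.65 (SE, adjusted p = 0.012) and −1.42 ± 0.45 (SE, adjusted p = 0.049). Vegfc, a growth factor of lymph vessels, was higher by 1.53 ± 0.33 (SE, adjusted p = 0.011). Hbegf, Tgfa and Fgf7, which drive keratinocyte migration, differed by −0.52, −0.45 and 0.57, and Vegfa by 0.43. Of 26 vessel genes 0 were called by limma, also at an unadjusted p below 0.05 with a fold above 2, and the endothelial genes Cdh5 and Kdr differed by 0.37 and −0.23. Epgn kept its call with slide as a block and lost it without db/db replicate 1 or WT replicate 1, while Areg lost its call in most fits, the slide block among them. Vegfc lost its call with slide as a block and without db/db replicate 2 or WT replicate 2.

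Cell cycle genes had small differences, mostly below 0. Of 33 tested, 30 were below 0, the median was −0.26, and Aurkb, a kinase of chromosome segregation, was the 1 called. Neither db/db array put it well above background, and it was at least 1.17-fold lower. The median lay between −0.52 and 0.0014 with 1 array left out. The proliferation genes Mki67 and Ccnb1 differed by −0.51 and −0.38. Respiratory chain genes had a median of 0.23 with 0 of 31 called, also at the unadjusted threshold. Of 25 glycolysis and hypoxia genes, Slc2a3, a high-affinity glucose transporter of neutrophils and macrophages, was higher by 2.62 ± 0.47 (SE, adjusted p = 0.0053), and Hk2, Ldha and Car9 were not called (−0.18, 0.06 and 0.56). The Slc2a3 call was lost with slide as a block and without WT replicate 2, and the Aurkb call with slide as a block and without db/db replicate 1 or WT replicate 2.

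Clock genes moved in both directions. Arntl and Nfil3, which peak together in the daily cycle, were higher by 1.01 ± 0.24 (SE, adjusted p = 0.018) and 1.83 ± 0.21 (SE, adjusted p = 6.2e-04). Per3, Ciart, Dbp and Tef, which peak in the opposite phase, were lower, with differences of −2.03 ± 0.34 (SE, adjusted p = 0.0036), −1.81 ± 0.24 (SE, adjusted p = 0.0011), −1.21 ± 0.38 (SE, adjusted p = 0.046) and −1.01 ± 0.27 (SE, adjusted p = 0.027). The other 12 of 18 clock genes were not called, Per1, Per2 and Nr1d1 among them (0.07, −0.04 and 0.04). Nfil3 and Ciart were kept in every fit, and Arntl, Dbp and Tef lost their calls with slide as a block and Per3 with normexp background correction. The hour at which each animal was killed is not given in the sources used here.

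Fosb, an immediate-early gene of the kind that responds within minutes to growth factors and stress, was at −1.53 and −2.48 on the WT arrays and 3.51 and 2.23 on the db/db arrays, a difference of 4.88 ± 0.73 (SE, adjusted p = 0.0022) that was kept in every fit. Because of its value, 7 other immediate-early genes were looked up, and 6 of them were called higher. Fos differed by 2.58 ± 0.51 (SE, adjusted p = 0.0076), Nr4a1 by 3.01 ± 0.57 (SE, adjusted p = 0.0064), Atf3 by 1.94 ± 0.51 (SE, adjusted p = 0.024), Egr1 by 1.53 ± 0.38 (SE, adjusted p = 0.019), Junb by 1.38 ± 0.36 (SE, adjusted p = 0.022) and Ier2 by 1.15 ± 0.35 (SE, adjusted p = 0.044), and Jun by 0.35, which was not called. The db/db arrays were above the WT arrays for each called gene, and db/db replicate 1 was higher than replicate 2 for all 8 immediate-early genes. The calls of Nr4a1, Atf3, Egr1, Junb and Ier2 were lost without db/db replicate 1. Those of Fos, Atf3, Egr1, Junb and Ier2 were lost with slide as a block and without WT replicate 2.

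The 2 labelled days share no arrays, and the db/db minus WT differences of both days were compared in 1 fit. Of 30890 probes tested on either day, the difference between the days was called for 307 (0.994%). At labelled day 7 itself 2904 of 29746 probes were called (9.76%). Both days called 1157 probes, which is 27.2% of the calls of labelled day 14 and 39.8% of those of labelled day 7, with the same direction in 1142. Fosb differed by −0.77 ± 0.73 (SE) at labelled day 7, and the day 14 value was above it by 5.65 ± 1.04 (SE, adjusted p = 0.041).

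Camp and Slfn4 went the other way between the days. For 1 of its probes, Camp, the antimicrobial granule peptide cathelicidin, differed by 6.47 ± 0.70 (SE) at labelled day 7 and 1.42 at labelled day 14, a change of −5.05 ± 0.99 (SE, adjusted p = 0.048). Slfn4, of myeloid cells, went from 3.06 to −0.84, and the neutrophil list median was 2.73 at labelled day 7. Mup and Skint medians were below 0 on both days. With slide as a block, or with only the arrays compared in the fit, limma called 0 probes for the difference between days, against 3081 and 2739 at an unadjusted p below 0.05 with a difference above 2-fold. With each array of labelled day 14 left out, 31, 63, 1100 and 51 probes were called.

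**Figure D5:**
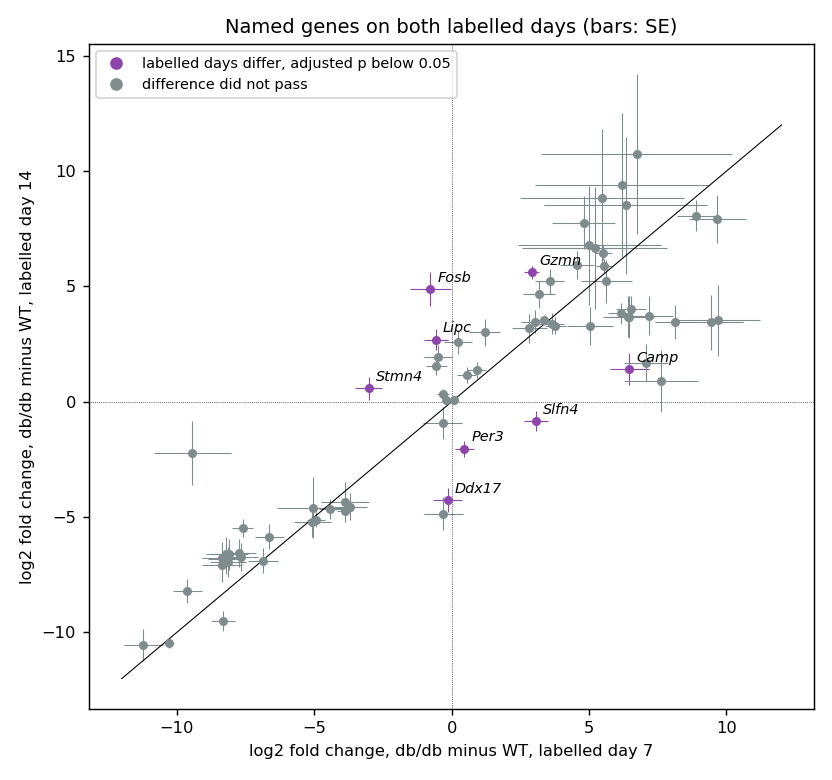
Difference between db/db and WT wounds at labelled day 7 (horizontal axis) and labelled day 14 (vertical axis) for the named genes, in log2 units with SE bars from 1 limma fit, and the line of equal differences. The purple genes Fosb, Lipc, Stmn4, Gzmn, Per3, Ddx17, Slfn4 and Camp are the plotted genes whose difference changed between the days.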

How the data were processed

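Total RNA of whole wounds was labelled with Cy3 and hybridised to 1-colour mouse arrays by the authors. The deposited scanner files, made with Agilent Feature Extraction 11.0.1.1, hold background-subtracted intensity for 44397 spots on each array. A deposited table of 34643 probes gives each intensity as a ratio to the array's 75th percentile, and scaled scanner signals matched it to within 0.1% at 99.4% or more of an array's probes. Here log2 intensity minus the log2 75th percentile over probes that are not controls was used for 39429 probes. Spots flagged as outliers were left out and spots of 1 probe averaged. Accessions named 27433 probes (69.6%) through RefSeq, GRCm38.p6, 6 of them through accessions the study gives. Probes of no symbol were tested but not named.

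All 16 arrays were fitted with 1 coefficient for each of 8 groups in limma 3.58.1 (R 4.3.3, statmod 1.5.0), with 8 residual degrees of freedom. The scripts were checked on simulated data. The number of arrays limits precision, and no spot was saturated. Members, gene lists and alternatives were chosen with earlier results of these data known. Named genes were the 15 largest called differences of each direction among probes above background on all 4 arrays, the 5 largest bounds of each direction, up to 4 called genes of each direction from each list, and defining markers. The genes of the study's tables of top genes in db/db mice were also included. So were the 5 called genes of each direction with the largest difference between the labelled days. Other list members were named whatever their values. Fos, Egr1, Nr4a1, Junb, Atf3, Ier2, Jun, Gzmc, Gzmd, Gzmf and Gzmg were added after values were seen. A list is described by the brightest probe of each gene. Alternatives covered normexp background correction with an offset of 50, quantile normalization, the deposited table, probe filters, a floor on dim signals, the threshold, the arrays in the fit, slide and replicate blocks, and each array left out. The arrays of treated wounds were used for the spread, the slide block and the quantile normalization. They also entered the mean over 16 arrays that chose each gene's brightest probe and sorted probes by level.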

Additional observations from a re-analysis of the deposited data

Results flagged for a closer look

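For 13 genes the db/db minus WT difference was not the same at the 2 labelled days by a limma test of the difference itself over 16 arrays. They are not a sample of the 307 probes called, since 5 of each direction were chosen for having the largest such difference. The values are differences of log2 differences, labelled day 14 minus labelled day 7. It was positive for Fosb (5.65 ± 1.04 SE, adjusted p = 0.041), Gzmn (2.70 ± 0.40 SE, adjusted p = 0.023), Stmn4 (3.60 ± 0.68 SE, adjusted p = 0.045, 1 of its probes) and Lipc (3.27 ± 0.63 SE, adjusted p = 0.046). Gzmn was higher in db/db wounds on both days, by 2.91 ± 0.28 (SE) at labelled day 7, and at least 12.2-fold at labelled day 14, where it was not well above background on either WT array. Stmn4, a neuronal stathmin, differed by −3.02 at labelled day 7 and 0.58 at labelled day 14. Lipc, hepatic lipase, was not well above background on either WT array of labelled day 14. The change was negative for Camp (−5.05 ± 0.99 SE, adjusted p = 0.048), Ddx17 (−4.12 ± 0.73 SE, adjusted p = 0.037), Slfn4 (−3.90 ± 0.61 SE, adjusted p = 0.025), Per3 (−2.50 ± 0.48 SE, adjusted p = 0.046) and Lcn2 (−3.39 ± 0.62 SE, adjusted p = 0.041), a lipocalin of neutrophil granules that differed by 3.88 ± 0.44 (SE) at labelled day 7. The Ddx17 value is that of a probe not above background on either db/db array, and the other Ddx17 probe differed by −0.47 at labelled day 14. For the other 4 genes, the probe that gave the value was too dim to be tested at labelled day 14 itself. These genes were Mobp (4.11 ± 0.57 SE, adjusted p = 0.019) and Hsd17b3 (2.89 ± 0.44 SE, adjusted p = 0.023), with positive values, and F630028O10Rik (−4.88 ± 0.57 SE, adjusted p = 0.012) and Itgb2l (−4.88 ± 0.74 SE, adjusted p = 0.023), with negative ones. A different Mobp probe was tested at labelled day 14 and was not called (−0.37, adjusted p = 0.35). None of the 13 passed in the fits with slide as a block or with only the arrays compared, where no probe was called. Labelled day and scan cannot be told apart.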

How the results depend on the processing

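The 4257 calls of labelled day 14 became 6516 with no minimum fold, 1991 with normexp background correction, 2831 with quantile normalization, 2831 with probes well above background on all 4 arrays, 2119 with only the arrays compared in the fit and 2172 with a block for slide. Leaving out 1 array gave 1580 (without WT replicate 2) to 5496 (without WT replicate 1). Calls higher in db/db wounds made up 12.03% of all calls, 22.9% with no minimum fold and 30.3% with quantile normalization, which moved the median of all probes by 0.19. The 307 calls of the difference between labelled days became 2957 at an unadjusted p, 14 with normexp, 155 with quantile normalization, 139 without a filter on dim probes, 0 with only the arrays compared and 0 with slide as a block, and 31 (without db/db replicate 1 of labelled day 14) to 1100 (without WT replicate 1 of labelled day 14) with 1 array left out. With the replicate number as a block they were 55, and the calls of labelled day 14 were 3822. The deviations of db/db and WT arrays of labelled day 14 with the same number had a correlation of −0.15. Over the pairs of groups within a labelled day it ranged from −0.36 to 0.31. Such values cannot show whether the numbers pair the arrays. At labelled day 7, arrays with the same number shared a slide. The crossed pairing, added after seeing the data, gave 4359 and 339 calls. The Lipc difference of 2.69 turned to −0.034 with normexp. Of 176 values of named probes, 59 missed the threshold with slide as a block, 59 without WT replicate 2, 48 without db/db replicate 1, 42 without db/db replicate 2, 45 with only the arrays compared, 19 with quantile normalization and 17 with normexp. The cause was not tested. Dim signals limit what can be read, since 927 lower and 36 higher calls were not above background on either array of the dimmer group.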

Other observations

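Probes without a gene symbol had more lower calls than named probes. Of 7886 such probes, 25.6% were called lower and 1.18% higher, against 7.72% and 1.87% of 22392 named probes, and their median differences were −0.46 and −0.05. Probes without a symbol were dimmer, with a median WT level of −3.58 against −1.28.

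Several genes outside the lists had large differences. Naip6, a sensor of bacterial proteins in inflammasomes, was at least 47.7-fold higher in db/db wounds, and the choline transporter Slc5a7 at least 16.5-fold higher, each not well above background on either WT array. The Slc5a7 call was lost with normexp background correction, and another Slc5a7 probe was at least 6.23-fold higher. Vipr2, a receptor for vasoactive intestinal peptide, was higher by 3.18 ± 0.63 (SE, adjusted p = 0.0079), a call lost with slide as a block and without db/db replicate 2 or WT replicate 2, and 1 Gm10639 probe by 3.48 ± 0.50 (SE, adjusted p = 0.0017), a call lost with only the arrays compared in the fit, while the other Gm10639 probe differed by 0.86. Mrgpra5, a receptor gene of the Mrgpr family, was higher by 4.04 ± 0.55 (SE, adjusted p = 0.0013) and well above background on 1 of the WT arrays. The gene model 5830417I10Rik was at least 254-fold lower, and Tmc7, of a family of membrane channels, was lower, with a difference of −4.73 ± 0.27 (SE, adjusted p = 1.3e-05). Hba-a1, of red blood cells, was at 3.65 and 2.01 on the WT arrays and 6.05 and 4.74 on the db/db arrays, a difference of 2.56 ± 0.92 (SE, adjusted p = 0.072).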
